A study of Mus musculus with 4 samples.

Results

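The genes described here encode the proteins of the mitochondrial ribosome. They were chosen by symbol: every row of the deposited count table whose gene symbol is Mrpl or Mrps followed by a number and at most 1 letter was taken, which gave 77 of 13192 listed genes, 48 named Mrpl for the large subunit and 29 named Mrps for the small subunit. All 77 passed the filter on low counts, with 195 to 2404 counts in any library. The libraries came from mouse heart: neonatal cardiac fibroblasts labelled as primary, wild-type cells, at day 7 of treatment with a short hairpin RNA against Nr4a3 (shNr4a3, 2 libraries) or a non-targeting hairpin (shNT, 2 libraries). A short hairpin RNA is processed in the cell into a small RNA that lowers the transcript it matches. The sources used here do not say how the hairpins were delivered or what the tag P3 in the titles stands for. The labels do not say whether replicates are separate cultures, so p-values measure only the spread between these libraries, which may be technical.

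The mitochondrial ribosome is built in the mitochondrial matrix from RNAs encoded in the mitochondrial genome and from proteins encoded in the nucleus, made in the cytosol and imported. It translates the few mRNAs of the mitochondrial genome, which encode core subunits of the respiratory complexes, and cardiac muscle depends heavily on those complexes. Many of its proteins descend from bacterial ribosomal proteins and the rest were added during the evolution of mitochondria. Nr4a3 is an orphan nuclear receptor, and the series asks how its loss helps fibroblasts to be converted into cardiomyocyte-like cells.

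The libraries held 34068241 and 35111013 counts for shNT and 34246969 and 34813598 for shNr4a3, of which these genes took 0.180% and 0.195% in shNT and 0.239% and 0.242% in shNr4a3. Nr4a3 itself was counted 60 and 29 times in the shNT libraries and 4 and 8 times in the shNr4a3 libraries, a log2 fold change of -2.98 ± 0.67 (SE; edgeR adjusted p = 3.22e-04). Fibroblast markers were present in every library. The marker sums given here are CPM scaled by library totals alone, without TMM factors. For 8 fibroblast markers the sum was 10300 and 10000 CPM in shNT and 5630 and 5720 in shNr4a3. Of these markers 3 rose (Pdgfra, Lum and Dcn), 4 fell (Tcf21, Col1a1, Vim and Col1a2) and 1 did not pass. The Dcn call was lost when either shNr4a3 library was left out. Summed markers were lower in shNr4a3 for mesothelial cells (516 and 494 against 125 and 128 CPM; 6 of 6 fell, though Wt1 lost its call in 8 alternatives), endothelial cells (222 and 218 against 61.1 and 56.4; 6 of 6 fell), smooth muscle (447 and 402 against 174 and 175; 3 of 4 fell and 1 rose, Rgs5, a call that ended on leaving out either shNT library or shNr4a3 replicate 2), cardiomyocytes (1010 and 969 against 498 and 527; 1 of 4 fell, Tnnt2) and glia (6.75 and 5.64 against 1.40 and 1.69; 3 of 4 fell). Nearly all of the cardiomyocyte sum was Tnnt2. In normalised CPM (counts scaled to a common library size with TMM factors) its mean level was 1029 in shNT and 491 in shNr4a3. Such means are not on the scale of the sums. In shNT the means of Ryr2, Myh6 and Tnni3 were 0.39, 0.70 and 0.28, and these 3 genes did not pass. The macrophage sum was higher (52.8 and 54.1 against 102 and 101), where of 3 tested markers Lyz2 rose and Cd68 fell. No listed marker was at 0 in any library, but no gene with a mean count under 10.25 was listed at all. That sentence therefore says little about which cell types were present. Listed were 4 of 6 cardiomyocyte, 4 of 6 macrophage and 4 of 5 smooth muscle and pericyte markers. The part of these shifts in the results given here was not tested, and in bulk RNA fewer cells of a type and less RNA per cell cannot be told apart.

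Of the 77 mitochondrial ribosomal protein genes 38 rose after the knockdown, all by small amounts, and 5 fell. These calls rest on an adjusted p under 0.05 in edgeR's quasi-likelihood test, with Benjamini-Hochberg adjustment over all 13160 genes tested. That is 49.4% and 6.49% of them, beside 27.6% and 27.9% of all tested genes. Their median log2 fold change was 0.25, against 0.00 for all tested genes. Changes that passed ran from 0.23 to 0.86 on the log2 scale upward and from -0.58 to -0.41 downward, so none reached a 2-fold difference and 7 reached 1.5-fold, all of them upward. These limits rest on the shNT libraries: leaving out shNT replicate 2 put Mrps18c (1.11) and Mrps22 (1.06) past 2-fold and 20 genes past 1.5-fold, and leaving out shNT replicate 1 gave 0.40 and 0.70 for these genes and 8 past 1.5-fold; without shNr4a3 replicate 1 there were 13 past 1.5-fold, and with library totals only 21. The other 34 did not pass, with log2 fold changes from -0.32 to 0.26, of which 24 were above 0 and 10 below. In 47 of the 77 genes both shNr4a3 libraries lay above both shNT libraries in normalised CPM, and in 8 they lay below, which is 61.0% and 10.4% beside 38.9% and 38.3% of all tested genes. Summed over the 77 genes, the level was 1881.9 and 2017.0 normalised CPM in shNT and 2303.7 and 2319.0 in shNr4a3. The groups did not overlap in this sum, and the shNT libraries lay further apart than the shNr4a3 libraries: 56 of the 77 genes were lower in shNT replicate 1 than in shNT replicate 2. The authors' deposited table lists 0 of the 77 genes at an adjusted p under 0.05, but its p-values exceed the two-sided p of its own test statistic for 77 of 77 members and 99.2% of all genes, so they are not those of a two-sided test of no change. For Mrps22 the authors' deposited table gives a log2 fold change of 0.86 with a p of 0.00649. In edgeR's test for a log2 change beyond 0.5 in either direction, 3 genes passed as higher (Mrps22, Mrpl15 and Mrps31) and 0 as lower, beside 5.7% and 10.3% of all tested genes.

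**Figure D1:**
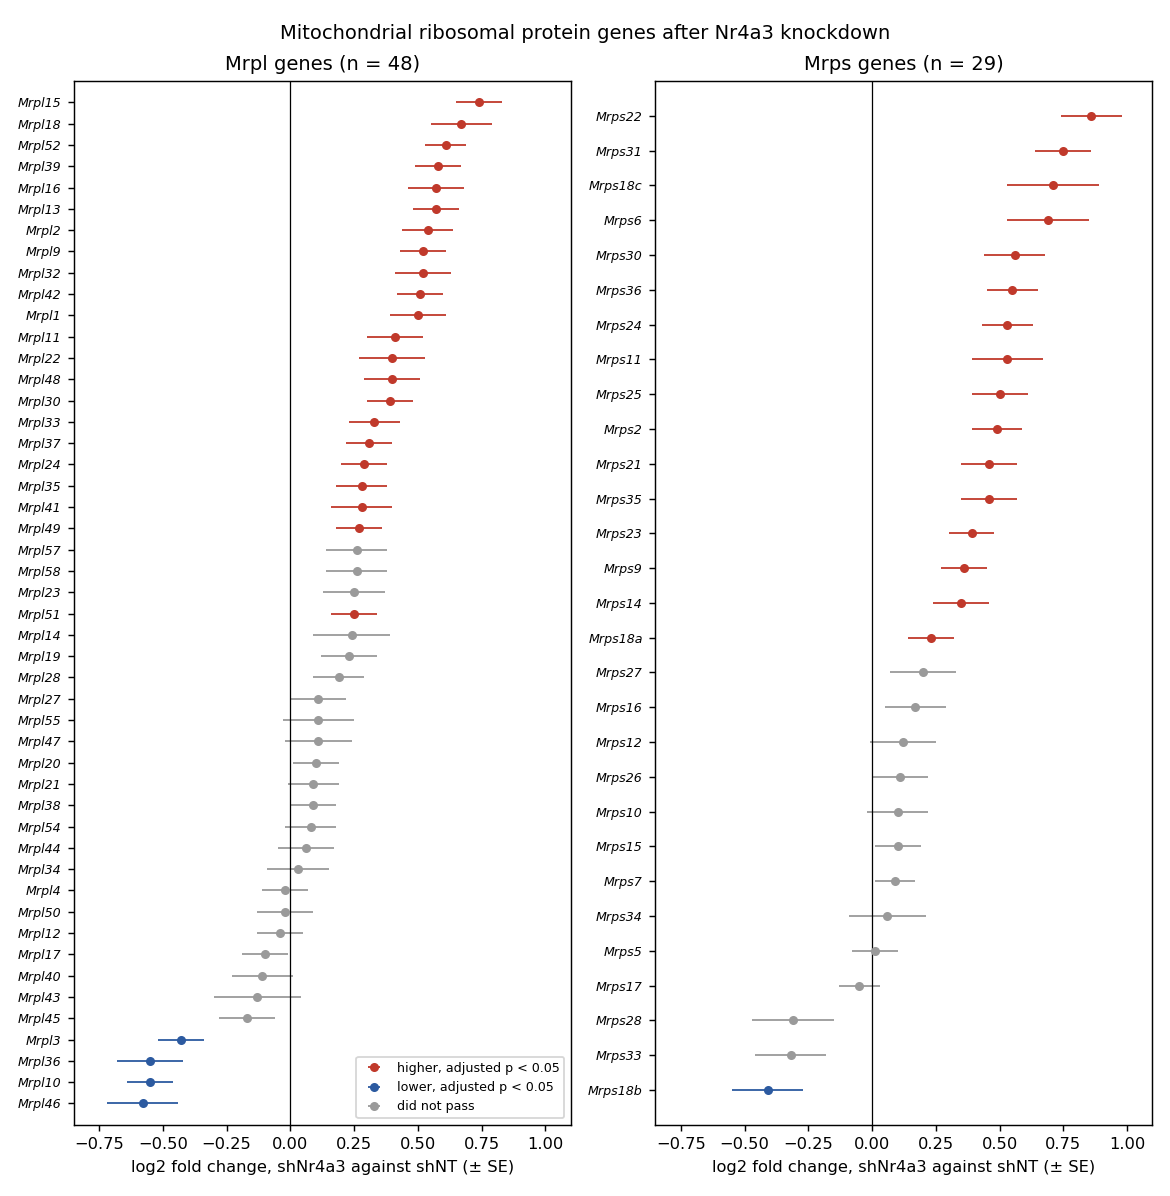
Log2 fold change of shNr4a3 against shNT (x axis, bars are ± 1 SE from edgeR, 2 libraries per group) for each of the 48 Mrpl genes (left) and 29 Mrps genes (right), sorted by size. Red points passed as higher (38), blue as lower (5) and grey did not pass (34); no gene lies above 0.86 or below -0.58.

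In the large subunit, which holds the catalytic centre that joins amino acids, 22 of 48 Mrpl genes rose and 4 fell. That is 45.8% and 8.33%, beside 27.6% and 27.9% of all tested genes. The largest rise was that of Mrpl15 (chromosome 1, 4773206 to 4785739, minus strand, GRCm38), a protein of the bacterial-type core. It had 32.6 and 30.9 normalised CPM in shNT and 52.1 and 53.8 in shNr4a3, a log2 fold change of 0.74 ± 0.09 (SE; edgeR adjusted p = 1.15e-08). The distance between the groups was many times the distance within either. Mrpl18, a protein of the central protuberance, rose from 13.2 and 16.8 to 25.1 and 22.8 CPM (log2 fold change 0.67 ± 0.12). Mrpl52, which has no bacterial counterpart, rose from 39.2 and 46.4 to 64.1 and 66.3 CPM (0.61 ± 0.08). Both genes were higher in each shNr4a3 library than in either shNT library. Mrpl39 (0.58 ± 0.09), also without a bacterial counterpart, and the core proteins Mrpl16 (0.57 ± 0.11) and Mrpl13 (0.57 ± 0.09) followed, and each of the genes named since Mrpl15 had an adjusted p of at most 4.75e-05 (edgeR). Mrpl52 has the shortest annotated transcript of all members, and with a correction for transcript length its log2 fold change was 0.17 (edgeR adjusted p = 0.0664). Smaller rises that held in all 15 alternatives without a minimum fold included Mrpl2 (0.54 ± 0.10), which lies near the catalytic centre, Mrpl32 (0.52 ± 0.11), which is cut by an inner membrane protease before assembly, and Mrpl1 (0.50 ± 0.11), the protein of the other stalk. Mrpl2 went from 23.0 and 23.1 to 34.7 and 32.1 CPM, with no overlap.

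The 4 large subunit genes that fell were Mrpl46, Mrpl10, Mrpl36 and Mrpl3. Mrpl46 (chromosome 7, 78775236 to 78783531, minus strand), a mitochondrial addition to the central protuberance, had 15.6 and 15.0 CPM in shNT and 10.2 and 10.3 in shNr4a3, a log2 fold change of -0.58 ± 0.14 (SE; edgeR adjusted p = 6.42e-04). Mrpl10 (chromosome 11, 97041560 to 97049213, plus strand) had 52.2 and 48.2 CPM against 34.6 and 33.9, a log2 fold change of -0.55 ± 0.09 (edgeR adjusted p = 2.43e-06). Neither gene overlapped between the groups. Mrpl10 forms the base of the ribosomal stalk, the flexible arm that recruits translation factors. Its partner in the stalk, Mrpl12, stood at 37.0 and 42.4 CPM in shNT and 37.8 and 39.7 in shNr4a3, with overlapping groups (log2 fold change -0.04 ± 0.09; edgeR adjusted p = 0.764), and Mrpl11, at the foot of the stalk, rose by 0.41 ± 0.11 (edgeR adjusted p = 0.00205). Without shNT replicate 1 the Mrpl11 call was lost. Mrpl36, a small core protein, fell from 17.8 and 19.5 to 13.2 and 12.2 CPM (log2 fold change -0.55 ± 0.13; edgeR adjusted p = 4.71e-04). Mrpl3, a core protein whose human counterpart is mutated in an inherited cardiomyopathy, fell from 38.2 and 37.4 to 28.3 and 27.7 CPM (-0.43 ± 0.09; edgeR adjusted p = 1.97e-04).

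Among proteins around the exit of the tunnel through which new chains leave, Mrpl22 (0.40 ± 0.13) and Mrpl24 (0.29 ± 0.09) rose, with adjusted p = 0.0071 and 0.00756 (edgeR). The Mrpl22 call ended on leaving out shNr4a3 replicate 2 (0.38, adjusted p = 0.0719) or correcting for length (0.13, adjusted p = 0.354), and that of Mrpl24 on leaving out shNr4a3 replicate 1 (0.23, adjusted p = 0.150). Mrpl23 differed by 0.25 ± 0.12 on the log2 scale without passing (edgeR adjusted p = 0.0788). Mrpl45, which anchors the ribosome to the inner membrane, had 27.6 and 25.1 CPM in shNT against 24.6 and 22.4 in shNr4a3, where the groups lay close together and the difference did not pass (-0.17 ± 0.11; edgeR adjusted p = 0.187). Mrpl44, whose human counterpart is also mutated in cardiomyopathy, had 22.3 and 23.5 against 23.5 and 24.3 CPM, and the groups overlapped (0.06 ± 0.11; edgeR adjusted p = 0.655). Mrpl58, a hydrolase that became part of the large subunit and can free stalled chains, differed by 0.26 ± 0.12 without passing (edgeR adjusted p = 0.0653).

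In the small subunit, which binds the mRNA and reads its codons, 16 of 29 Mrps genes rose and 1 fell. That is 55.2% and 3.45%, beside 27.6% and 27.9% of all tested genes. Mrps22 (chromosome 9, 98588730 to 98601660, minus strand), a mitochondria-specific protein whose loss in humans impairs mitochondrial translation, showed the largest change of all members. Its counts were 491 and 657 under shNT and 1157 and 1094 under shNr4a3, or 15.1 and 19.4 against 32.5 and 30.2 normalised CPM. That is a 1.82-fold higher level (log2 fold change 0.86 ± 0.12; edgeR adjusted p = 1.9e-07), and the gap between the groups exceeded the spread within either. Mrps31 (chromosome 8, 22411361 to 22429665, plus strand), another mitochondria-specific protein, rose from 14.4 and 16.4 to 25.6 and 26.2 CPM (0.75 ± 0.11; edgeR adjusted p = 1.83e-06). Mrps6, a core protein whose exons share 464 bases with other genes on its strand, rose from 8.07 and 8.43 to 11.9 and 14.6 CPM (0.69 ± 0.16; edgeR adjusted p = 3.78e-04). Mrps12, the core protein at the decoding site, had 14.6 and 16.4 against 16.1 and 17.6 CPM, with overlapping groups (0.12 ± 0.13; edgeR adjusted p = 0.436). Mrps28 (-0.31 ± 0.16; adjusted p = 0.0971) and Mrps33 (-0.32 ± 0.14; adjusted p = 0.0555) did not pass (edgeR), and both passed as lower with the length correction.

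Smaller rises that held in all 15 alternatives without a minimum fold included the core proteins Mrps24 (0.53 ± 0.10) and Mrps2 (0.49 ± 0.10) and the mitochondria-specific Mrps23 (0.39 ± 0.09). Mrps2 went from 32.0 and 26.7 to 37.1 and 45.1 CPM, with no overlap but a wide spread in both groups.

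The 3 paralogs of the Mrps18 family, which are related in sequence and occupy different places in the ribosome, gave 3 different values. Mrps18c, which sits in the small subunit and shares 250 exon bases with Gm43511, rose from 5.98 and 9.76 to 12.7 and 13.0 CPM (log2 fold change 0.71 ± 0.18; edgeR adjusted p = 0.00108). Mrps18b, also in the small subunit, was the small subunit gene that fell, with 652 and 494 counts under shNT and 487 and 448 under shNr4a3 (-0.41 ± 0.14; edgeR adjusted p = 0.0157). Its lower shNT library stood close to the shNr4a3 libraries, and the call did not survive the loss of shNT replicate 1 (-0.16, adjusted p = 0.380) or of shNr4a3 replicate 2 (-0.33, adjusted p = 0.134), nor scaling by library totals alone (-0.29, adjusted p = 0.0881). Mrps18a, which structures place in the large subunit in spite of its symbol, had 31.1 and 32.5 against 34.9 and 39.8 CPM (0.23 ± 0.09; edgeR adjusted p = 0.0371). That call was lost in 6 of 15 alternatives, among them those without shNT replicate 1 (0.20) and without shNr4a3 replicate 2 (0.13). Differences between the paralogs were not tested. Mrps30, the other large subunit protein with a small subunit symbol, rose by 0.56 ± 0.12 (edgeR adjusted p = 2.77e-04). Mrps36, a protein now placed in the oxoglutarate dehydrogenase complex and not in the ribosome, rose by 0.55 ± 0.10 (edgeR adjusted p = 3.09e-05). Mrps36, Mrpl23 and Mrpl48 have annotated pseudogenes that carry their symbol, 5 in all, and reads could be split among them, so their values are uncertain. Pseudogene copies under other names were not searched for, so the remaining members may have copies too. Among the listed genes was 1 pseudogene with an Mrp symbol.

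**Figure D2:**
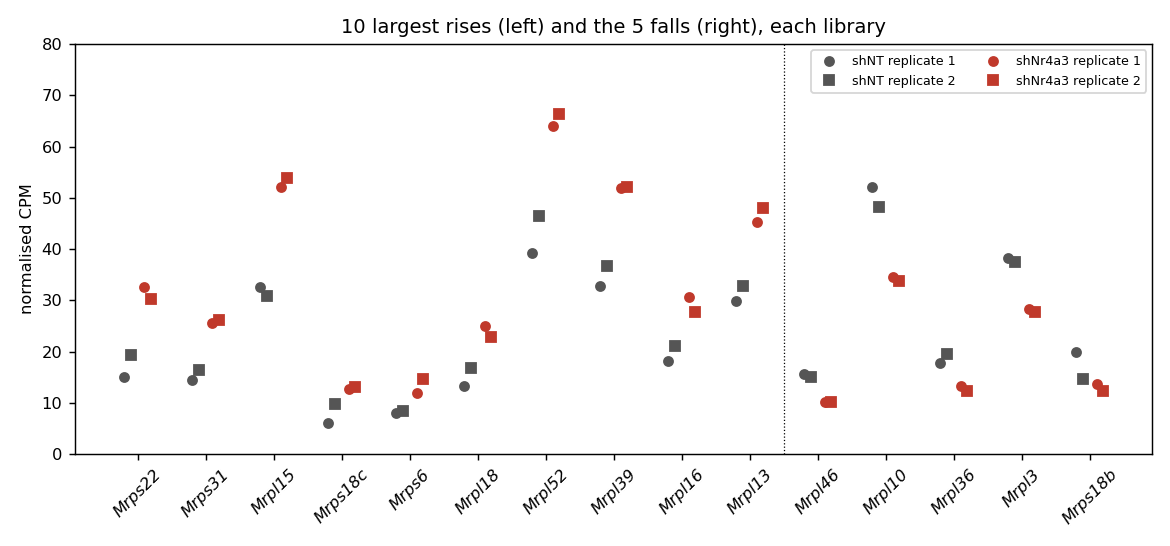
Normalised CPM (y axis) of the 10 members with the largest rises (left of the dotted line) and the 5 that fell (right), 1 point per library, grey for shNT and red for shNr4a3, circles for replicate 1 and squares for replicate 2. In all 15 genes the groups do not overlap, which is no separate support since the genes were picked by their calls. Of all tested genes 38.9% lie apart upward and 38.3% downward. Mrps18b has the widest shNT pair beside its difference.

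Both subunits had medians above 0, and a difference between them was not resolved. The median log2 fold change was 0.25 for the 48 Mrpl genes and 0.35 for the 29 Mrps genes, with 45.8% and 55.2% of them higher. With Mrps18a and Mrps30 moved to the large subunit and Mrps36 left out, as in ribosome structures, the medians were 0.25 over 50 genes and 0.28 over 26, with 24 and 13 genes higher. The difference of the medians, large minus small, was -0.10 by symbol and -0.03 by structure. It ran from -0.16 to 0.00 when single libraries were left out, so no difference between the subunits held up against the spread between libraries; 2 libraries per group allow no exact two-sided permutation p under 0.333. Proteins with bacterial counterparts (22 of 46 higher, 3 lower, median 0.24) and mitochondria-specific ones (15 of 30 higher, 2 lower, median 0.25) had close medians as well. Beside all these shares and counts stand 27.6% higher and 27.9% lower among all tested genes. Per library, the summed level of large subunit genes, in normalised CPM per kilobase of transcript, was 2.73 and 2.66 times that of small subunit genes in shNT and 2.69 and 2.55 times in shNr4a3. That ratio was lowest in shNr4a3 replicate 2, and the other 3 libraries lay between 2.66 and 2.73.

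**Figure D3:**
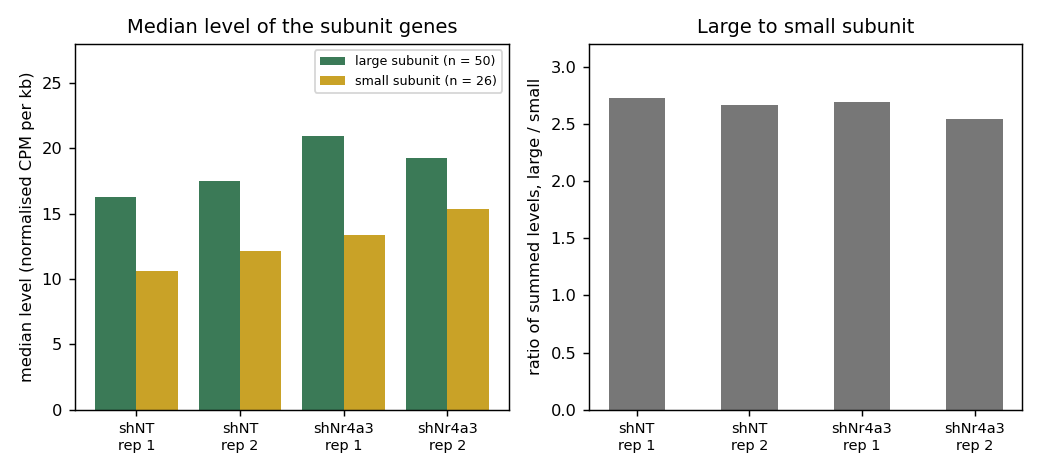
Left, median level in normalised CPM per kilobase of transcript for 50 large subunit (green) and 26 small subunit (yellow) genes assigned by structure, in each library. Right, ratio of the summed levels, large to small; both medians are higher in each shNr4a3 library than in either shNT library, while the ratio stays between 2.55 and 2.73.

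Levels differed far more between members than between groups. In shNT the level per kilobase of transcript ran from 3.54 to 102 normalised CPM with a median of 15.2, against 8.12 for all tested genes. Mrpl52 stood highest at 102 ± 12.2 normalised CPM per kilobase (SD, n = 2), followed by Mrps21, Mrpl20, Mrpl42 and Mrpl33, between 62.2 and 51.5. Of these, Mrpl42 rose by 0.51 on the log2 scale, Mrps21 by 0.46 and Mrpl33 by 0.33, while Mrpl20 differed by 0.10 ± 0.09 (edgeR adjusted p = 0.352). The calls of Mrps21 (0.07) and Mrpl33 (-0.07) were lost with the length correction, and that of Mrpl33 also without shNr4a3 replicate 1 (0.30). The lowest levels were those of Mrps25, Mrps35, Mrps10, Mrps30 and Mrpl19, between 3.54 and 4.29, of which Mrps25 rose by 0.50, Mrps35 by 0.46 and Mrps30 as given above, while Mrps10 (0.10 ± 0.12) and Mrpl19 (0.23 ± 0.11) did not pass. High and low members were thus found among both the genes that rose and those that did not pass. The order of levels depends on the transcript length used, 418 bases for Mrpl52 and 6073 for Mrps25, the lowest member. For Mrpl33 the transcript used has 478 bases, while its annotated exons cover 7326.

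Mrpl46 and Mrps11 start next to each other on opposite strands and moved in opposite directions. Their RefSeq starts lie 42 bases apart on chromosome 7, and the windows from 250 bases before to 50 bases after each start share 141 bases. Mrps11 (chromosome 7, 78783119 to 78792989, plus strand), a core protein of the small subunit, rose from 10.6 and 13.0 to 17.3 and 16.8 CPM (log2 fold change 0.53 ± 0.14; edgeR adjusted p = 0.00139), while Mrpl46 fell by 0.58. In GENCODE M21, where the starts lie 412 bases apart and the genes overlap, they share 173 exon bases. Reads there cannot be told apart if the counting ignored strand, which the sources used here do not state. The same arrangement with opposite values was seen for Mrpl36, which fell by 0.55, and Ndufs6, a complex I subunit, which rose by 0.70 ± 0.10 (edgeR adjusted p = 6.09e-07; 673 and 822 counts against 1317 and 1304). Mrpl37 (0.31) and Cyb5rl (-0.38) also moved apart, but the Cyb5rl call ended under limma-voom and other alternatives. Of the members with such a neighbour, 2 that rose had one that fell and 2 that fell had one that rose, while 4 rose with one that rose. Of all tested genes 27.6% rose and 27.9% fell. The RefSeq windows of 4 members (GRCm38.p6) are shown to let the neighbouring starts be compared with that of the largest riser, Mrps22, and with Mrpl39, a riser with a match to the motif of the factor NRF1. They stand 5′ to 3′ on the strand of each gene, with the start at base 251 and any motif match in capitals.
Mrpl46, chr7:78783040-78783339, minus strand: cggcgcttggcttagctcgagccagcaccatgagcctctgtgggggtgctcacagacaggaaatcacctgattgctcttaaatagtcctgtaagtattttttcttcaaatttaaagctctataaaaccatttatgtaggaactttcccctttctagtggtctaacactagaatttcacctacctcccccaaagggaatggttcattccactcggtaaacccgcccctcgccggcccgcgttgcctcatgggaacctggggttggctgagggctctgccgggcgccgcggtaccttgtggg
Mrps11, chr7:78782881-78783180, plus strand: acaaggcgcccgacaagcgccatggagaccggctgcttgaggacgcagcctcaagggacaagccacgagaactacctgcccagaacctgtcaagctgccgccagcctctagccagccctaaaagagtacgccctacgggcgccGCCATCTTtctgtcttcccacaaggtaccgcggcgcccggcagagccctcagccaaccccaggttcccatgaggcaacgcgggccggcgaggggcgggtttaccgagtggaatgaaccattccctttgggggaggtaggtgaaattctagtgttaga
Mrps22, chr9:98601630-98601929, minus strand: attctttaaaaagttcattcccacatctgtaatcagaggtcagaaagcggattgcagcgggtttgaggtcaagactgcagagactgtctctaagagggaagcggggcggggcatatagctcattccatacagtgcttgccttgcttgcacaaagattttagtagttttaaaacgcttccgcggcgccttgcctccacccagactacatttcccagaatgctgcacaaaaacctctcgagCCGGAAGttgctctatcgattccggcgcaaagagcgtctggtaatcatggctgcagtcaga
Mrpl39, chr16:84735195-84735494, minus strand: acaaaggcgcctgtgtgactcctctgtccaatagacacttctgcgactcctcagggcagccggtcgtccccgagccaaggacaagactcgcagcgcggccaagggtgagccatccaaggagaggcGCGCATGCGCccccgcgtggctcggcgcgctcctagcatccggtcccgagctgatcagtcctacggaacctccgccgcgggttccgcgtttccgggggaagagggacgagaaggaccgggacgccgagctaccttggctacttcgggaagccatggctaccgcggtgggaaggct
The capitals mark AAGATGGC, read on the other strand, at bases 144 to 151 of Mrps11, CCGGAAG at bases 240 to 246 of Mrps22 and the NRF1 motif at bases 126 to 135 of Mrpl39, and the Mrpl46 window has no match.

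Genes that start close to a member on the other strand were compared with it. In GENCODE M21, 30 members have a tested protein-coding gene on the opposite strand that starts within 1000 bases, in 29 pairs since Mrpl46 and Mrps11 are each other's neighbour. Of these 30 neighbours 10 rose (33.3%) and 6 fell, beside 27.6% and 27.9% of all tested genes. For the 12 members that rose, 4 neighbours rose as well, which is again 33.3% and near the share of all genes: Mrpl49 with Fau, a gene whose product includes a cytoplasmic ribosomal protein (0.27 and 0.47), Mrpl18 with Tcp1, a chaperonin subunit (0.67 and 0.17), Mrpl2 with Klc4 (0.54 and 0.30) and Mrpl30 with Mitd1 (0.39 and 0.32). Leaving out a single library or another alternative ended the calls of Tcp1, Klc4 and Mitd1, and Mrpl49 lost its call without shNr4a3 replicate 1 (0.21, adjusted p = 0.214), while Fau kept its call in all alternatives without a minimum fold. All 5 members that fell share exon bases with another annotated gene: Mrpl10 shares 240 with Gm11574, Mrpl3 shares 248 with Gm38077, Mrps18b shares 638 with Gm16279, Mrpl46 shares 173 with Mrps11 and Mrpl36 shares 30 with Ndufs6. Sharing is not particular to the members that fell. Of all 77 members, 27 share exon bases with a gene on the opposite strand and 7 with one on their own strand, some in both. Members that rose are among them, such as Mrps25 (4590 with Nr2c2), Mrpl48 (708 with Rab6a) and Mrps30 (623 with B430218F22Rik). Among the 45 members that share no exon bases, 24 rose and 0 fell, beside 27.6% and 27.9% of all tested genes. With the length correction 21 of these 45 were higher and 4 lower (Mrps33, Mrps28, Mrpl34 and Mrpl54), so the absence of falls among them depended on that setting, and 2 were lower without shNT replicate 1 and 1 without shNr4a3 replicate 2. The part of shared reads in these values was not tested.

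Promoter motifs known from genes of mitochondrial biogenesis were found in part of the members. RefSeq windows of 300 bases were at hand for 68 members (74 windows), and motifs were searched on both strands by exact letters. CCGGAAG, a core bound by ETS factors such as GABP, was in 33.8% of the member windows, 16.4% of the windows of tested genes and 8.86% of all 32851 windows. The palindromic NRF1 motif was in 17.6%, 9.29% and 4.60%, and AAGATGGC, bound by YY1, in 16.2%, 4.15% and 2.75%. AAAGGTCA, the element that NR4A receptors bind as single molecules, was in 0 of the 74 windows, against 0.955% of tested-gene windows and 1.51% of all, and CACGTG, bound by MYC and related factors, was in 9.46%, 9.58% and 7.15%. Among the 25 members with CCGGAAG 11 rose and 2 fell (median log2 fold change 0.23, against 0.28 without it), among the 13 with the NRF1 motif 6 rose and 0 fell (0.26 against 0.26), and among the 12 with AAGATGGC 8 rose and 1 fell (0.28 against 0.26). Of all 77 members 49.4% rose and 6.49% fell, beside 27.6% and 27.9% of all tested genes. Differences between members with and without a motif were not tested. A match describes the letters in the window and is no measure of binding.

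The mRNAs of 4 factors that bind the NRF1, ETS and YY1 motifs were looked at, Gabpb1 among them, and not those of other ETS factors or of MYC. Nrf1 (0.08 ± 0.10; adjusted p = 0.529), Gabpa (0.01 ± 0.08; adjusted p = 0.955) and Yy1 (-0.03 ± 0.06; adjusted p = 0.755) did not pass (edgeR). In the list of 13 tested genes of mitochondrial transcription and its regulators, 2 rose and 2 fell, with a median of 0.08. That is 15.4% each way, below the 27.6% higher and 27.9% lower among all tested genes. Esrra, a nuclear receptor of mitochondrial biogenesis, rose by 0.35 ± 0.08 (edgeR adjusted p = 7.94e-04) and Gabpb1, the partner of Gabpa, by 0.38 ± 0.09 (edgeR adjusted p = 8.37e-04). Pprc1, a coactivator, fell by 0.46 (SE 0.08; edgeR adjusted p = 1.58e-05) and Tfam, which packages and transcribes mitochondrial DNA, by 0.35 (SE 0.10; edgeR adjusted p = 0.00534). Leaving out shNr4a3 replicate 1 ended the calls of Gabpb1 (0.29, adjusted p = 0.0689) and Tfam (-0.27, adjusted p = 0.141), and scaling by library totals ended that of Tfam (-0.23).

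In the other lists of mitochondrial translation smaller shares passed as higher than among the members, a contrast that was not tested, and the shares of all tested genes were 27.6% higher and 27.9% lower. Of 26 genes that assemble the mitochondrial ribosome and modify its rRNA, 6 rose (23.1%) and 2 fell (7.69%), and the median log2 fold change stood at 0.08. The rRNA methyltransferase Mrm2 rose by 0.75 (SE 0.17), the large subunit assembly factor Malsu1 by 0.61 (SE 0.14) and Fastkd2, an RNA-binding protein of that assembly, by 0.56 (SE 0.11), all at or below an edgeR adjusted p of 5.11e-04, and Mrm1, another methyltransferase, fell by 0.50 (SE 0.14; edgeR adjusted p = 0.00359). Leaving out shNr4a3 replicate 2 ended the Mrm1 call (-0.34, adjusted p = 0.140). Of 17 translation factors and related genes, 3 rose and 3 fell (17.6% each), around a median of 0.09. Oxa1l, the insertase that receives new chains at the tunnel exit, was counted 1285 and 1439 times under shNT and 818 and 933 times under shNr4a3 and fell by 0.75 (SE 0.10; edgeR adjusted p = 8.03e-08). Lrpprc, which stabilises mitochondrial mRNAs, fell by 0.48 (SE 0.08; edgeR adjusted p = 2.53e-06), and Guf1, an elongation factor-like GTPase, rose by 0.56 (SE 0.10; edgeR adjusted p = 2.93e-05). Metap1d, a methionine aminopeptidase, rose by 0.57 (SE 0.17), and lost the call when shNr4a3 replicate 1 was left out (0.49). The elongation factors Tufm (0.08 ± 0.08) and Tsfm (0.05 ± 0.12) did not pass (adjusted p = 0.428 and 0.724, edgeR).

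Of 20 mitochondrial tRNA synthetase and amidotransferase genes, 1 rose and 1 fell (5.0% each), around a median of -0.03. The riser was Yars2 (0.32, adjusted p = 0.0158), lost without shNr4a3 replicate 1 (0.37) or shNr4a3 replicate 2 (0.27), and the other was Sars2 (-0.57, adjusted p = 0.0179), lost under library totals (-0.46) and on leaving out shNT replicate 2 (-0.45) or shNr4a3 replicate 1 (-0.47; edgeR). Nars2 (0.33, adjusted p = 0.0773) and Gatc (0.22, adjusted p = 0.0935), next by p, did not pass (edgeR). Sars2 starts within 172 bases of Mrps12 on the opposite strand. The mitochondrially encoded mRNAs were counted very unevenly, in shNT replicate 1 with 9 counts for ATP8, 1241 for COX2 and 186581 for COX1. The source of this spread was not tested. Of these mRNAs 7.69% rose and 38.5% fell, beside 27.6% and 27.9% of all tested genes. Of the 13 mitochondrially encoded mRNAs that this ribosome translates, 1 rose (COX1) and 5 fell (ND1, ND2, ND5, ND6 and CYTB), all by at most 0.21 on the log2 scale, with a median of -0.15; none of the 6 calls held when either shNr4a3 library was left out. Of 5 ribosomal proteins whose symbols lie outside the Mrp naming, Chchd1 rose by 0.70 (SE 0.10; edgeR adjusted p = 2.91e-07) and Dap3 fell by 0.19 (SE 0.08; edgeR adjusted p = 0.0424), but that call ended under library totals (-0.08), the replicate block and the length correction, and on leaving out shNT replicate 2 (-0.16), shNr4a3 replicate 1 (-0.19) or shNr4a3 replicate 2 (-0.20). Ptcd3 (0.17), Aurkaip1 (0.11) and Gadd45gip1 (0.47) did not pass. Beside the 49.4% of mitochondrial ribosomal protein genes that rose, 57 of 85 cytoplasmic ribosomal protein genes rose (67.1%) and 5 fell, at a median of 0.33 on the log2 scale against 0.25; the difference was not tested.

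**Figure D4:**
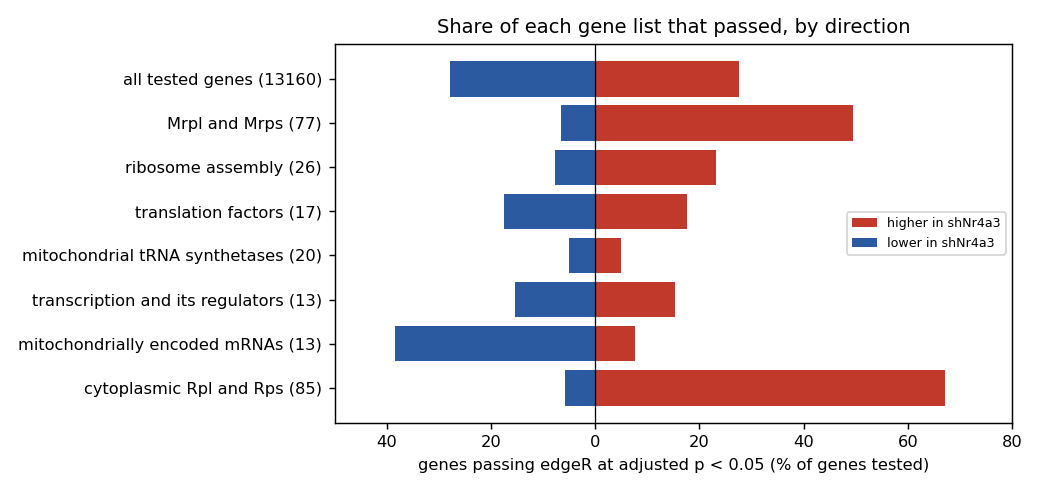
Percent of the tested genes of each list that passed as higher (red, right) or lower (blue, left) in shNr4a3 (edgeR threshold 0.05), with the number tested in brackets. The Mrpl and Mrps genes show 49.4% higher and 6.49% lower beside 27.6% and 27.9% for all tested genes, and the mitochondrial tRNA synthetases show 5.0% each way.

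Transcript length moved with the fold change, and the members are short. Their median transcript length was 1339 bases, against 3198 for all tested genes with a length. Among the 3170 genes with transcripts up to 2042 bases 30.9% rose and 22.3% fell, and of the 50 members among them 25 rose and 4 fell. Among the 634 tested genes with the shortest transcripts (up to 971 bases) the median log2 fold change was 0.26, and that of the 22 members among them was 0.24. In the next 634 genes (973 to 1308 bases) the medians were 0.15 for all and 0.36 for 14 members, and in the third such set (1309 to 1578 bases) 0.02 for all and 0.29 for 9 members. The members with the shortest transcripts thus had a median close to that of all genes of their length, and those in the following 2 sets stood above it. After a smooth length trend was removed from each library, 36 members were higher and 9 lower, beside 27.5% and 27.7% of all tested genes, and the members' median was 0.17. The genes that fell then included Mrps33, Mrps28, Mrpl34 and Mrpl54 besides the 5 named before. Mrps22 and Mrpl15 kept their calls. The part of length in the rise of the shortest members was not tested apart from this correction.

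**Figure D5:**
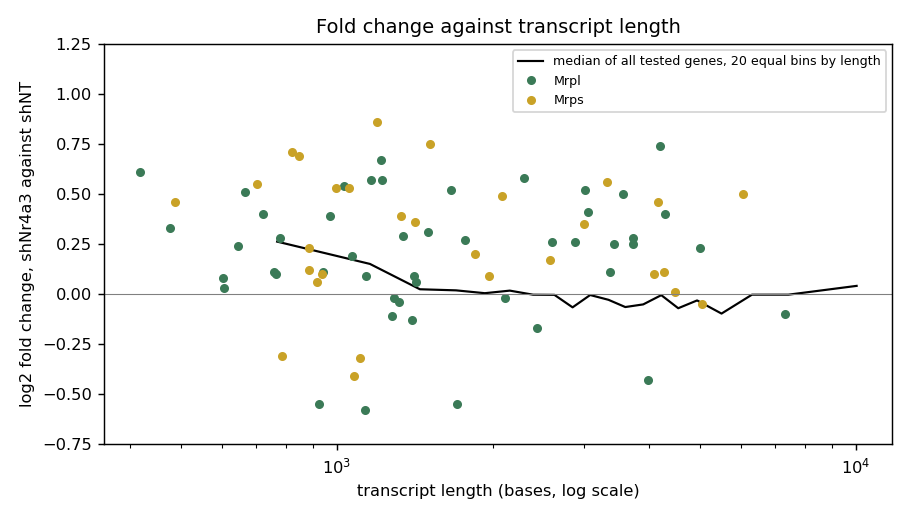
Log2 fold change of shNr4a3 against shNT (y axis) against annotated transcript length (x axis, log scale) for Mrpl (green) and Mrps (yellow) genes, with the median of all tested genes in 20 equal bins by length (black line). The line falls from 0.26 in the shortest bin to 0.02 in the third, and most members longer than that lie above it.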

How the data were processed

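RNA was measured in 4 libraries, put into groups by title. The labels' protocols describe stranded paired-end libraries after removal of ribosomal RNA, while the labels name the molecule polyA RNA. The submitters' processing notes name mm10, Trimmomatic 0.36, Subread 1.5.1, featureCounts and SAMtools, with the aligner and the strand setting not given in the sources used here. Raw counts per gene, per the file headers and values, were deposited for 13192 genes, none with a mean count under 10.25. The log2 fold change, its standard error and test statistic (both taken as a score), the p-value and the mean signal in the table are the authors' own comparison. Their adjusted p was used to count members. Their p-value was set against their test statistic for all genes. For Mrps22 their log2 fold change and p-value were quoted. The deposited FPKM values of the authors were not used: the gene lengths they imply had a Spearman correlation of -0.006 with exonic lengths over 12705 genes. Levels per kilobase use the longest APPRIS principal transcript in GENCODE M21 (GRCm38), which held all 77 members, or else the longest transcript.

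Counts were tested with edgeR 4.0.16 in R 4.3.3 (robust quasi-likelihood F test, group as the only term, TMM factors, filterByExpr, which removed 32 genes). P-values were adjusted by Benjamini-Hochberg over 13160 genes with a threshold of 0.05, and the SE is the log2 fold change divided by the square root of F. Between replicates the common biological coefficient of variation came to 6.57%, and chi-square per gene was 11.1 for the shNT and 3.98 for the shNr4a3 pair, so none was 1 library deposited again. Same-numbered libraries did not deviate together (correlation -0.0316), so the numbers were not taken to pair them. The test was tried on simulated data first, with far fewer changed genes than passed here and changes larger than the members' median. That trial does not cover changes as small as this median. Members and lists were chosen with earlier results of these data known. Genes named with values are the 10 largest rises, all falls, the 5 highest and 5 lowest levels, members of fixed structural interest and up to 4 genes of each other list with the smallest p; others (Mrps33, Mrpl34, Mrpl54, the smaller rises, the neighbours and further list genes) were chosen after their values were seen. Alternatives were DESeq2 1.42.0, limma-voom (limma 3.58.1), other scaling factors and filters, a replicate block, a transcript length correction (lowess span 0.3), abundant genes left out, a minimum fold and each library left out. How these alternatives move the count of members past 1.5-fold, the count without shared exon bases and the neighbour calls was computed after seeing the data.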

Additional observations from a re-analysis of the deposited data

How the results depend on the processing

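Of the 43 members that passed, 29 kept their call in all 15 alternatives other than the minimum fold, 25 of the 38 that rose and 4 of the 5 that fell. The number higher ran from 32 to 44 and the number lower from 5 to 6 when single libraries were left out. In the test against a log2 fold change of 0.5 the counts were 3 higher (1 Mrpl, 2 Mrps) and 0 lower, since that test asks for a larger change. With the length correction, with or without the replicate block, 9 were lower, the median was 0.17 and large minus small was -0.07. Scaling by library totals gave 45 higher and 4 lower and a median of 0.36, but moved the median of all genes from 0.004 to 0.117 and the shares of all genes to 35.7% higher and 21.6% lower. Leaving out single libraries gave medians from 0.20 (without shNT replicate 1) to 0.33 (without shNT replicate 2) and large minus small from -0.16 to 0.00; by structure it was -0.03. Of the genes of the other lists (12 higher, 8 lower), library totals gave 19 higher and 4 lower, the minimum fold 0 higher and 1 lower, and leaving out single libraries 7 to 14 higher and 6 to 10 lower. Signs turned for Mrpl33 (-0.07), Mrpl20 (-0.15), Mrps12 (-0.08) and Aurkaip1 (-0.00, and -0.01 with the block) under the length correction, with the same values for the first 3 genes under the block, for Mrpl20 on leaving out shNT replicate 1 (-0.01; highest 0.23), and for Mrpl12 under library totals (0.08) and on leaving out shNT replicate 2 (0.07; lowest -0.13). Other than where a sentence says so, the cause was not tested. The replicate block alone gave 38 higher and 6 lower, and all 43 calls were shared with the fit without it. The numbers do not pair the libraries.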

Other observations

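The deposited FPKM values and counts imply a gene length that is whole, within 0.01 bases, in 100% of the nonzero values, yet those lengths equalled the exonic length in GENCODE M21 for 0.016% of 12705 genes. Over the 77 members the Spearman correlation of the implied with the exonic length was 0.045. For Mrpl4 the implied length was 456 bases and the exonic length 2617, and for Mrpl54 they were 3530 and 825; both genes were picked after their values were seen. Levels between genes in the deposited FPKM therefore do not follow these annotated lengths, while ratios of 1 gene between libraries are not touched by its length. The counts do not depend on these lengths.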
